A study of Mus musculus with 3143 samples.

Results

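The type I interferon response genes are a set of 37 mouse genes, chosen by symbol from the 46517 genes of the deposited count table: sensors of viral RNA and DNA, the transcription factors that carry the signal, the antiviral effectors they switch on, and other genes that interferon induces. All 37 symbols were found. Their reads were followed across endothelial, mesangial, podocyte, tubule and immune cells of the kidney, and between IgAN and Control cells.

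The study sorted single cells from the glomerular fraction of kidneys of adult C57BL/6 mice and compared cells labelled IgAN with cells labelled Control; IgAN stands for IgA nephropathy, a glomerular disease with IgA deposits. Cells of both groups were released with collagenase, pronase and DNase, stained with a live-cell dye, sorted into the wells of 384-well plates and sequenced with Smart-seq2, which reads full-length polyadenylated cDNA. The IgAN group held 1798 cells on 6 plates (numbered 313, 315, 316, 318, 322 and 325) and the Control group 1345 cells on 4 plates (314, 317, 321 and 326). The labels do not say how IgAN was produced and name no animal, sex or genetic change, so each group counts as 1 sample, no p-value is given for any difference, and each plate holds 1 group, so that plate and group cannot be told apart. The spread between plates is given instead; plates may share animals, so that this spread may be technical and is not a replicate error.

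Type I interferons, the interferon alpha and beta proteins, bind a receptor made of the IFNAR1 and IFNAR2 chains. The kinases JAK1 and TYK2 then phosphorylate STAT proteins, STAT2 among them, which join IRF9 into a complex that binds the interferon-stimulated response element (ISRE) before its target genes. Interferon gamma uses another receptor, acts through the gamma-activated site (GAS), and shares many targets with type I interferon, so the members cannot by themselves tell the ligands apart. Most cell types carry the receptor, endothelial cells and leukocytes of the kidney among them.

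The table held 816735155 reads in 3143 cells; a cell had between 50365 and 1135415 of them, and the median cell had 231222 in IgAN and 241543 in Control. Levels are given as CPM: reads of a gene pooled over the cells of a class, per 1000000 reads of those cells. Intervals in parentheses are exact 95% Poisson limits on those pooled reads and cover counting error only, since several reads can come from 1 amplified molecule. A difference is log2 of (IgAN CPM + 1) over (Control CPM + 1), which understates the change of genes with low levels. A gene counted as measured in a class where it had at least 10 CPM and a read in at least 10% of cells in 1 of the groups. It met the size rule where the log2 difference was at least 1 and all plates of one group lay above all plates of the other, counting plates with at least 5 cells of the class and requiring 3 such plates in each group.

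Some libraries stood apart from their group. The share of the gene model Gm13340 in the reads of Gm13340 and mt-Nd4 had a median of 63.5% to 80.5% on the IgAN plates, 0% on Control plates 314, 321 and 326, and 2.22% on Control plate 317. Against a limit of 30%, 60 cells lay on the other group's side, 38 labelled Control and 22 labelled IgAN, and 34 of the 38 were on plate 317. Plate 317 also differed in a member, Ifi44l: it had 1763 reads in 46 of 333 cells (13.8%), whereas the other 3 Control plates had 0 reads in 1012 cells, which allows a share of up to 0.296% of cells with a read. Without plate 317 the member medians given with each class below came to 0.55 in endothelial-like, 0.60 in mesangial-like, 0.34 in podocyte-like, 3.91 in proximal and 3.74 in distal tubule-like, 0.73 in macrophage or dendritic-like, 0.37 in T or NK-like and 0.50 in B or plasma cell-like cells. Without the cells on the other side they came to 0.54, 0.26, 0.31, 3.91, 3.56, 0.72, 0.21 and 0.36 in the same order.

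The start regions of 4 members show what sets them apart in sequence, and are printed because 3 of them (Isg15, Rsad2 and Oas1a) carry the ISRE core, while Ifi44l, with the widest difference between groups in endothelial-like cells, does not. Each line gives the 250 bases before the gene's start in the RefSeq promoter table for GRCm38.p6, 5′ to 3′ on the gene's strand, which is the minus strand in all 4. Capitals mark matches to the ISRE core, searched as GAAA, any 2 bases and GAAA again, on either strand, with overlapping matches joined.

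Isg15, chr4:156200819-156201068: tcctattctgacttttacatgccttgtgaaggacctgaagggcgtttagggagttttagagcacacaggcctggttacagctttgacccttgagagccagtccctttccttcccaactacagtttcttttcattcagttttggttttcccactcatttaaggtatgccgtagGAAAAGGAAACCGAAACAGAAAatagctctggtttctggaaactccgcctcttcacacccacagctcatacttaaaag
Rsad2, chr12:26456453-26456702: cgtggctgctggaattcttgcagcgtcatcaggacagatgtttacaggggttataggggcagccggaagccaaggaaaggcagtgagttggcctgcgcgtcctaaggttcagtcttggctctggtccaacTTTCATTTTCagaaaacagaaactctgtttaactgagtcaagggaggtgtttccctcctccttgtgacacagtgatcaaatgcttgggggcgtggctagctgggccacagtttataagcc
Oas1a, chr5:120907526-120907775: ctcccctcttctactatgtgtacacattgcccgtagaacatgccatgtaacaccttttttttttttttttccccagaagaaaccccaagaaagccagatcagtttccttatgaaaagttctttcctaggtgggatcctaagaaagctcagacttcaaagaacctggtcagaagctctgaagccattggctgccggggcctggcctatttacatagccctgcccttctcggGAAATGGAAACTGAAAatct
Ifi44l, chr3:151762892-151763141: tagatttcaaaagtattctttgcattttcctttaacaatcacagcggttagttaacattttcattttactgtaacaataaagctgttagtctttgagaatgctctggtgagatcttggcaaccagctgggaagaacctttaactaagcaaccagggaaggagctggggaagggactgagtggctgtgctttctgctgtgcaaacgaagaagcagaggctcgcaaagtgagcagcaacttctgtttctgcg

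In Isg15 3 overlapping matches began 78, 72 and 66 bases before the start, and in Oas1a 2 overlapping matches began 20 and 14 bases before it. Rsad2 had 1 match, on the opposite strand. The promoter table held 28 of the 37 members, and Zbp1, Usp18, Oas2, Mx1, Mx2, Parp9, Parp14, Ifi27 and Rtp4 were not in it. The ISRE core occurred in the 250 bases of 10 of the 28 members (35.7%), against 936 of all 27025 genes in the table (3.46%). These 10 were Bst2, Ifit1, Ifit3, Ifitm2, Isg15, Oas1a, Oas3, Rsad2, Stat2 and Trim30a. The GAS core TTCNNNGAA, searched on both strands as well, occurred in 4 of the 28 members (14.3%) and in 2197 of all genes (8.13%). A match to these letters is a description of the sequence, and its absence from this window says nothing about the factors.

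In endothelial-like cells, the class with the most cells, the members were mostly higher in IgAN. Of the 37 members 33 were measured there, and 31 of the 33 had a positive difference, with a median of 0.54 on the log2 scale; the median over all 9694 measured genes was 0.01 and 51.2% were positive. Each IgAN plate, taken alone against the pooled Control cells, had a member median between 0.30 and 0.70, and each Control plate one between -0.16 and 0.07. The endothelial-like class held 1002 IgAN and 614 Control cells, and all 12 endothelial markers were found in both groups, summing to 15123 and 15767 CPM. By the size rule 5 members (Ifi44l, Zbp1, Isg15, Oas1a and Rsad2) were higher in IgAN, where 0.774% of all measured genes were, and 0 members were lower, where 0.743% of all measured genes were. Without the cells on the other side of the Gm13340 share Ifi47 joined these 5 (0.824% of all measured genes were higher there). Oas2, Oas3, Ifitm1 and Mx1 were not measured in this class, and 3 of the 33 members passed the filter on low values through the IgAN cells only. Zbp1 and Ifi44l were among these 3, so the filter itself favoured a positive sign for them. Isg15, Oas1a and Rsad2 passed it in both groups. The 30 members that passed in both groups had a median of 0.54, and 29 of them were positive.

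The clusters that made up the class were not shared evenly. Of the 614 Control cells 414 lay in a cluster with 44 IgAN cells whose leading genes included the platelet genes Ppbp, Itga2b, Tubb1, Gp5 and Gp9, although all 12 endothelial markers were found there. IgAN cells lay mostly in 3 other clusters, led by Hspg2 and Btnl9 (337 IgAN and 66 Control cells), by Gm20659 and Nfib (267 and 19) and by Rnd1 and Serpina3g (243 and 3). In the platelet-led cluster 6 platelet genes summed to 199 CPM in Control and 25.1 CPM in IgAN cells; in the other endothelial-like clusters they summed to 22.9 and 16.7 CPM. Without that cluster, an alternative chosen after seeing the data, 27 of 33 members were positive with a median of 0.36, and IgAN plates (0.15 to 0.60) still lay above Control plates (-0.26 to 0.12). Zbp1 (2.90), Oas1a (1.20), Rsad2 (1.14) and Ifi44l (4.02) still met the rule there, against 1.14% of all genes, and Isg15 came to 0.93. Irf1, Stat2, Oasl2, Cmpk2 and Ifi35 turned to between -0.27 and -0.04.

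**Figure D1:**
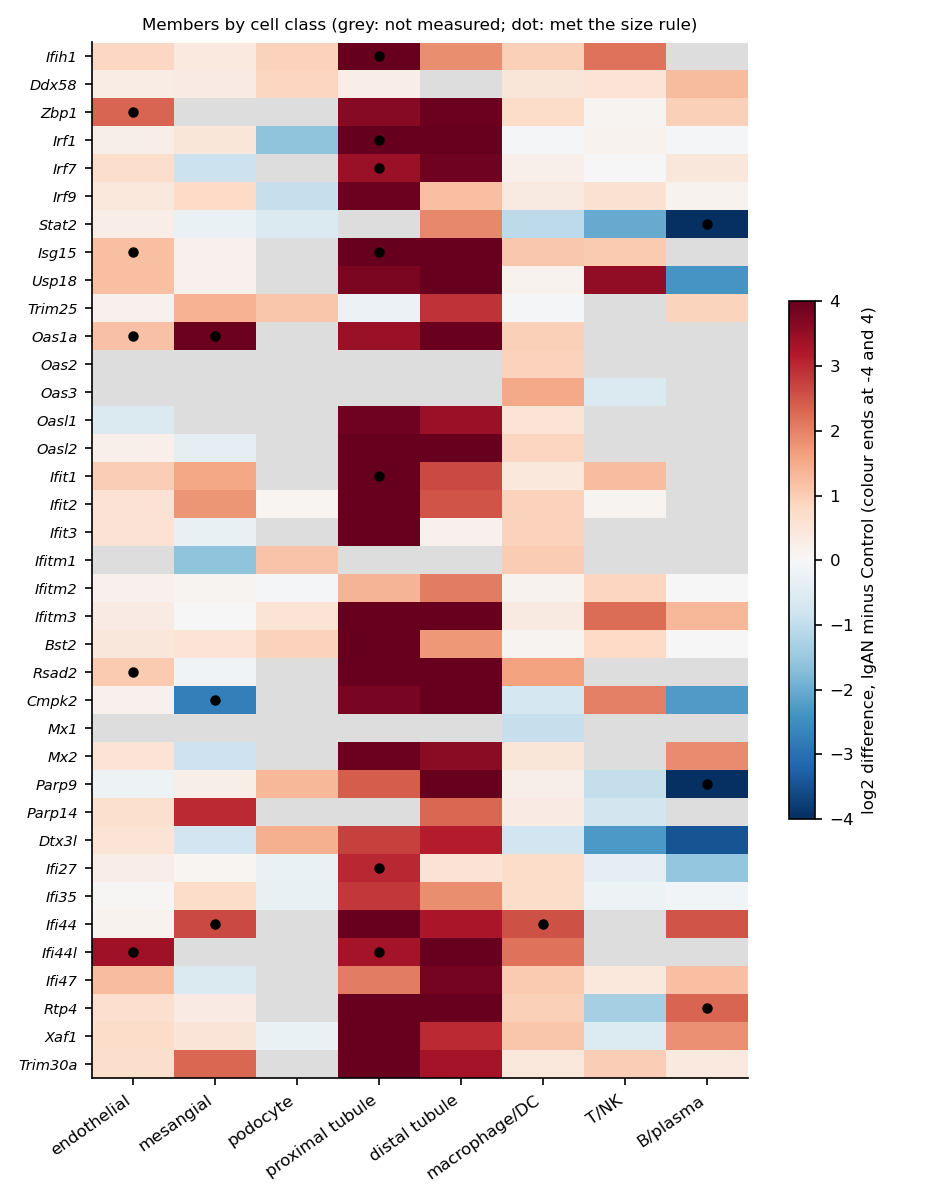
Log2 difference, IgAN minus Control, of each of the 37 members (rows, by role) in 8 cell classes (columns), with grey for members not measured in a class and a dot where the size rule was met. The endothelial-like column is mostly pale red with a median of 0.54, and the tubule columns are the darkest. In tubule-like cells the endothelial markers differed between the groups as well.

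The sensors include MDA5 (Ifih1) and RIG-I (Ddx58), which detect viral RNA, and Zbp1, which detects Z-form nucleic acid and can start cell death. Zbp1 was scarce: it stood at 5.87 to 22.7 CPM (median 10.0) on the IgAN plates and at 3.37, 0.212, 0.400 and 2.17 CPM on Control plates 314, 317, 321 and 326. The groups did not overlap, with the highest value on IgAN plate 322. Pooled, Zbp1 had 12.4 CPM (12.0 to 12.9) in IgAN and 1.68 CPM (1.49 to 1.88) in Control cells, a log2 difference of 2.33, and 14.6% against 6.19% of cells had a read (6.39% against 1.30% with each cell thinned to 50000 reads). Without plate 322 its log2 difference was 1.86 and it no longer counted as measured. Ifih1 stood at 54.1 to 90.5 CPM (median 78.6) on IgAN plates and at 33.8, 52.4, 40.8 and 38.5 CPM on Control plates, which did not overlap, though the log2 difference of 0.82 fell short of the rule. Ddx58 ranged from 43.3 to 100.5 CPM (median 76.3) on IgAN plates and stood at 62.2, 75.5, 24.3 and 57.9 CPM on Control plates, so that the groups overlapped (0.30).

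All 4 transcription factors among the members had positive differences, with a median of 0.35, and none met the rule. Irf1, a factor that many cytokines induce, was the most abundant of them: its CPM was 205 on IgAN plate 322 and 558 to 793 on the other IgAN plates, against 409, 416, 435 and 531 on the Control plates. Plate 322 thus lay below every Control plate while the other IgAN plates lay above them, and the pooled log2 difference was 0.23. Irf9, the DNA-binding part of the STAT complex, stood at 166 to 293 CPM (median 227) on IgAN and at 139, 197, 239 and 139 CPM on Control plates (0.44), and these overlapped. Irf7, which drives interferon alpha genes, had 161 CPM in IgAN and 98.1 CPM in Control cells (0.71), with plate 317 at 123 CPM within the IgAN range of 122 to 200 CPM. Stat2, the STAT protein that binds IRF9, had 67.9 and 56.3 CPM (0.26).

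The ISG15 system had the highest role median of the 9 roles, 1.20 over 3 members. Isg15, a ubiquitin-like protein that is attached to other proteins and is also secreted, stood at 44.8 to 93.4 CPM (median 60.1) on the IgAN plates and at 37.5, 24.7, 37.0 and 24.3 CPM on the Control plates. No Control plate reached the lowest IgAN plate. Pooled, the values were 68.4 CPM (67.4 to 69.4) and 29.3 CPM (28.5 to 30.1), with reads in 42.3% against 22.0% of cells. Usp18, the protease that removes ISG15 and also damps IFNAR signalling, stood at 48.0 to 155 CPM (median 77.0) on IgAN and at 32.4, 47.3, 50.0 and 39.0 CPM on Control plates. Its log2 difference was as wide as that of Isg15 (1.21), but IgAN plate 325 lay just below Control plate 321. Trim25, a ligase that activates RIG-I, had 41.5 and 36.4 CPM (0.18).

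The oligoadenylate synthetases make a messenger that activates the nuclease RNase L, and the 3 members of the family that were measured differed in direction. Oas1a stood at 67.8 to 125 CPM (median 77.9) on IgAN plates and at 18.6, 46.5, 60.4 and 37.4 CPM on Control plates, which did not overlap. Pooled, Oas1a had 87.6 CPM (86.5 to 88.8) against 38.0 CPM (37.1 to 39.0), a log2 difference of 1.18. Oasl2, a catalytically active relative, stood at 135 to 190 CPM (median 152) on IgAN and at 144, 163, 76.9 and 120 CPM on Control plates, with wide overlap (0.19). Oasl1 had the lowest difference of all members in this class, -0.58 (10.4 against 16.0 CPM). Oas1a has close relatives in its cluster on chromosome 5, so reads shared with them could have been counted either way.

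The IFIT proteins bind foreign RNA and block its translation. Ifit1 stood at 38.4 to 88.0 CPM (median 54.3) on IgAN and at 43.2, 32.4, 17.3 and 21.3 CPM on Control plates, with plate 314 inside the IgAN range (1.00, just under the limit at full precision). Ifit2 had 39.6 to 81.2 CPM (median 55.4) on IgAN and 37.8, 37.3, 37.8 and 34.1 CPM on Control plates. Its groups did not overlap, though the difference was 0.59. Ifit3 also came to 0.59 (49.7 against 32.7 CPM).

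The IFITM proteins block viral entry at membranes, and tetherin (Bst2) holds budding virus at the cell surface. Ifitm2, Ifitm3 and Bst2 were abundant in endothelial-like cells, and Ifitm1 was not measured there (0.726 CPM in IgAN and 0.321 CPM in Control cells). Per kilobase of exon, Ifitm3 led all members at 1600 CPM per kb in IgAN and 1280 in Control endothelial-like cells, followed by Ifitm2 (915 and 820) and Bst2 (432 and 315). Elsewhere levels of different genes are set side by side in CPM, which does not allow for their length. Ifitm3 stood at 839 to 1298 CPM (median 1125) on IgAN and at 878, 853, 957 and 850 CPM on Control plates (0.32); only IgAN plate 316 fell within the Control range or below it. Ifitm2 stood at 383 to 737 CPM (median 621) on IgAN and at 582, 464, 679 and 518 CPM on Control plates (0.16), with full overlap. Bst2 had 390 against 284 CPM (0.46). Ifitm3 was read in 100% of IgAN and 99.7% of Control cells.

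Viperin (Rsad2) makes a chain-terminating nucleotide from CTP, and Cmpk2, a nucleotide kinase encoded 12751 bases away on the opposite strand, feeds the same pathway. Rsad2 stood at 196 to 350 CPM (median 243) on IgAN and at 105, 120, 134 and 133 CPM on Control plates. These did not overlap. Pooled, Rsad2 had 254 CPM (252 to 256) against 122 CPM (120 to 124), a log2 difference of 1.05, with reads in 68.5% against 40.7% of cells. Its neighbour Cmpk2 stood at 64.7 to 144 CPM (median 84.3) on IgAN and at 77.1, 80.6, 55.4 and 91.2 CPM on Control plates (0.17). Of the Mx GTPases, which trap viral nucleocapsids, Mx2 came to 0.54 (36.1 against 24.6 CPM) and Mx1 was near 0 in both groups (0.369 and 0.275 CPM). GENCODE lists Mx2 as a polymorphic pseudogene, and whether its RNA encodes a working protein in these mice was not tested.

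PARP9 and DTX3L act as a pair in ADP-ribosylation and ubiquitination, and Parp14 is a related enzyme. Parp9 had 31.6 to 79.1 CPM (median 62.7) on IgAN and 52.9, 97.2, 78.2 and 43.7 CPM on Control plates (-0.20). Parp14 had 40.0 to 66.0 CPM (median 54.2) on IgAN and 52.2, 30.0, 43.4 and 19.4 CPM on Control plates (0.65). Both overlapped between groups. The Parp9 and Dtx3l genes overlap by 682 bases on opposite strands, and whether the counting used strand is not given in the sources used here, so their reads cannot be fully told apart. In all, 14 members overlap another gene and 11 of them a gene on the opposite strand.

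Of the other induced genes, all 8 had positive differences, with a median of 0.69. Ifi44l stood at 43.0 to 94.7 CPM (median 51.7) on the IgAN plates and at 0, 16.3, 0 and 0 CPM on Control plates 314, 317, 321 and 326. Every Control read came from plate 317. Pooled, Ifi44l had 61.9 CPM against 4.94 CPM (3.41); without plate 317 no read of it was found in 444 Control cells, which allows up to 0.676% of cells with a read, against 36.9% of IgAN cells. Ifi44, its neighbour 8776 bases away on the same strand, stood at 198 to 377 CPM (median 343) on IgAN and at 331, 305, 298 and 241 CPM on Control plates, with full overlap (0.14). Ifi27 stood at 189 to 291 CPM (median 253) on IgAN and at 177, 203, 232 and 220 CPM on Control plates (0.28). Ifi47, a GTPase also induced by interferon gamma, came to 1.23 (92.3 against 38.7 CPM) with IgAN plate 318 at 44.9 CPM, inside the Control range of 33.4 to 47.9 CPM. Rtp4 (0.66), Xaf1 (0.72), Trim30a (0.71) and Ifi35 (0.03) did not meet the rule.

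**Figure D2:**
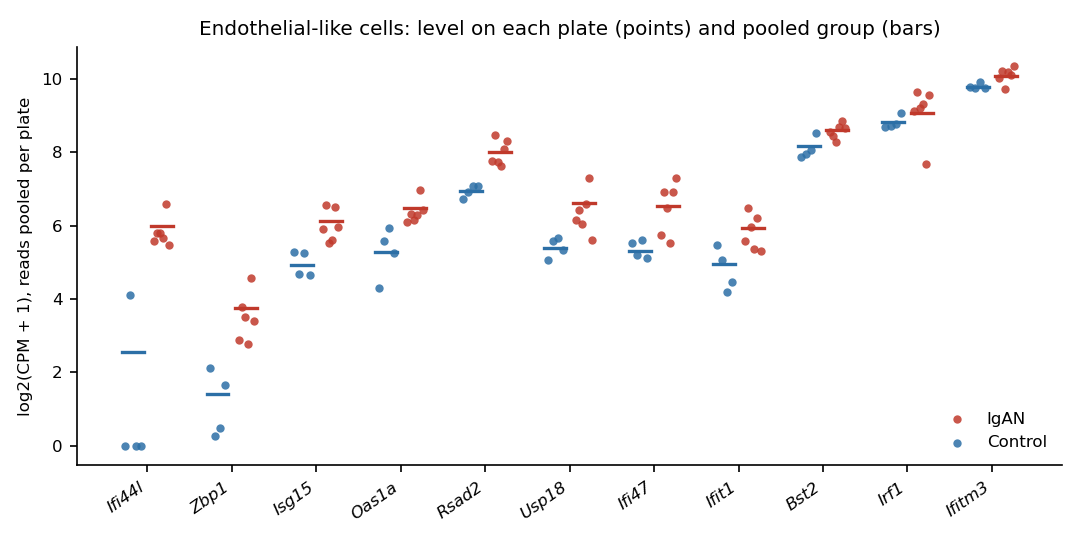
Level of 11 members in endothelial-like cells as log2(CPM + 1), with 1 point per plate and a bar for the pooled group, IgAN in red and Control in blue. The 2 groups of points are apart for Ifi44l, Zbp1, Isg15, Oas1a and Rsad2, and overlap for the others; for Irf1 the low red point is plate 322 at 205 CPM.

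The absence of Ifi44l on 3 Control plates had no parallel among other genes. Of the 8589 genes with at least 10 CPM on each of the other plates, Ifi44l was the only 1 with 0 reads on plates 314, 321 and 326, where 254713868 reads were counted. On the IgAN plates 20.9% to 68.9% of all cells had an Ifi44l read. Of the 46 cells with a read on plate 317, 35 lay on the Control side of the Gm13340 share and 11 on the IgAN side. By that share, Ifi44l was read in 6 of the 49 plate 317 cells with no read of Gm13340, in 29 of the 250 with a share up to 30%, and in 11 of the 34 above it. The cells with a read were 23 endothelial-like and 10 macrophage or dendritic-like cells and 13 of other kinds or unnamed. The GENCODE annotation of GRCm38 tags the Ifi44l gene as lying in a stretch with a reference genome error, and what part the annotation, the plates or the mice had in these zeros was not tested.

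The cells of the endothelial-like class differed in how much of the response they held. Summed over the 33 members other than the IFITM genes and Bst2, the median cell had 3141 CPM in IgAN and 2106 CPM in Control. Plate medians of that sum were 2644 to 3617 CPM in IgAN and 1845 to 2332 CPM in Control and did not overlap. In pooled cells the 10th percentile was 1009 against 498 CPM and the 90th 6767 against 5475 CPM. By plate the 10th percentile did not overlap, at 829 to 1154 CPM in IgAN and 205 to 619 CPM in Control. The 90th did overlap, with IgAN plate 318 (5796 CPM) below Control plate 317 (6022 CPM). The tenth of cells with the highest sums held 24.6% of the total in IgAN and 28.4% in Control. Across cells of 1 plate, members went together only weakly, and as a description over shared depth the median rank correlation of the 528 pairs was 0.07, with 12 pairs at 0.2 or more. The highest was Parp9 with Dtx3l (0.46), the overlapping pair, followed by Isg15 with Ifit3 (0.26) and with Ifit1 (0.24).

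In the cluster with the same number of cells in both groups (106 and 106), led by the elastic fibre genes Fbln5 and Fbln2, 32 of 33 members were positive with a median of 0.68. Its IgAN plates lay between 0.35 and 0.90 and its Control plates between -0.19 and 0.18. There Xaf1, a factor linked to cell death, had 248 CPM in IgAN and 91.5 CPM in Control cells (1.43), Isg15 130 and 50.6 CPM (1.35) and Irf7 356 and 144 CPM (1.30); these were named after their values were seen. In the cluster led by Hspg2 the median was 0.28 with 26 positive, and IgAN plates (0.20 to 0.59) lay above Control plates (-0.31 to 0.14). In the cluster led by Gm20659 it was 0.68 with 24 positive, with IgAN plates from -0.51 to 0.73 around the only Control plate at -0.01. In the platelet-led cluster it was 0.53 with 25 positive, and IgAN plates (-0.65 to 0.82) overlapped Control plates (-0.16 to 0.13).

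The 9 measured members with an ISRE core in the printed window length had a median difference of 0.71 in endothelial-like cells, and the 17 measured members of the table without it a median of 0.32. Both sets ranged widely, from 0.16 to 1.20 and from -0.58 to 3.41.

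The genes that make and carry the signal were looked up in lists chosen with earlier results of these data known. Of 14 interferon ligand genes 10 had no read in any of the 3143 cells, and none was measured in endothelial-like cells. Ifnb1, the interferon beta gene, had 136 reads in 2 IgAN cells, 135 of them in 1 macrophage or dendritic-like cell. Ifne had 14 reads in 2 cells and Ifnk 46 reads in 7. Ifng, the interferon gamma gene, was the only ligand with a broad signal, and in T or NK-like cells it stood at 221 to 701 CPM (median 281) on IgAN plates and at 55.8, 98.0, 60.0 and 141 CPM on Control plates. No Control plate reached the IgAN range. Pooled, Ifng had 339 CPM (332 to 347) in IgAN and 87.1 CPM (83.8 to 90.6) in Control T or NK-like cells, a log2 difference of 1.95, with reads in 40.9% and 18.8% of cells. The class joins a T cell cluster led by Cd3e (32 IgAN and 83 Control cells) and an NK cell cluster led by Gzma and Ncr1 (61 and 45), so that most IgAN cells lay in the latter and most Control cells in the former. Within the NK cluster Ifng had 505 against 204 CPM, on plates of 308 to 924 CPM in IgAN and 80.0 to 329 CPM in Control, which overlapped. Within the T cell cluster it had 99.0 against 23.7 CPM, with only 2 IgAN plates of at least 5 cells. Of all 303 cells with an Ifng read, 62 were T or NK-like, 132 endothelial-like and 24 proximal tubule-like. Ifng was also measured in proximal tubule-like cells, with a log2 difference of 3.98 that did not meet the size rule. The ligand genes together had 557 reads there in IgAN and 2 in Control cells. Plasmacytoid dendritic cells, known producers of interferon alpha, have markers such as Siglech, which had 99.9 CPM in IgAN and 161 CPM in Control macrophage or dendritic-like cells. The other 4 markers of the list (Ccr9, Cox6a2, Ly6d and Klk1) were also lower in IgAN. Of the 5, 4 were measured there and 0 met the size rule. The list is not particular to this class. Its genes had 10035 reads in IgAN and 9598 in Control cells there, and 15212 and 11393 in distal tubule or collecting duct-like cells. Whether the number of plasmacytoid dendritic cells differed was not tested.

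In endothelial-like cells the receptor Ifnar1 had 126 CPM in both groups, Ifnar2 182 against 214 CPM, Ifngr1 198 against 160 CPM and Ifngr2 110 against 76.8 CPM. Of the 5 measured receptor genes 4 were positive, with a median log2 difference of 0.05, and 0 met the size rule. Among the kinases and STATs Jak1 came to 0.16 (214 against 191 CPM), Jak2 to 0.12 (14.7 against 13.5 CPM), Stat3 to -0.09 (130 against 138 CPM) and Tyk2 to -0.29 (25.9 against 31.8 CPM), and none of these 4 met it. Of the sensing and adaptor genes outside the members, such as Mavs and Irf3, 9 of 13 were measured and 2 of those were positive, with a median of -0.24 and none called. Of 9 genes that restrain the pathway 8 were measured and 7 were positive, with a median of 0.39 and none called. Of 16 targets that lean to interferon gamma 11 were measured, all 11 were positive with a median of 0.82, and 3 were higher by the rule, as were 0.774% of all measured genes. Whether they differ from the members was not tested. These were Gbp3, a guanylate-binding GTPase (83.4 against 31.9 CPM, 1.36), Irgm2, an immunity-related GTPase (93.6 against 36.9 CPM, 1.32), and Psmb9, an immunoproteasome subunit (164 against 77.2 CPM, 1.07).

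Before disease is considered, the members already differed between cell classes. In Control cells 4 members had a leading class at least 4 times above the next. Oas2 stood at 49.6 CPM in macrophage or dendritic-like cells, 12.0 times its level in endothelial-like cells (4.12 CPM), and Mx1 at 46.0 CPM there, 101 times its level in T or NK-like cells (0.456 CPM). Their Control plates varied: Oas2 stood at 40.4, 100.2, 47.6 and 0 CPM and Mx1 at 10.5, 97.6, 71.2 and 14.5 CPM on plates 314, 317, 321 and 326. Ifi44 was highest in endothelial-like cells (290 CPM), 5.19 times its level in macrophage or dendritic-like cells (55.9 CPM). Ifi44l was higher in macrophage or dendritic-like cells (27.0 CPM) than in endothelial-like cells (4.94 CPM), 5.46 times, and all of it came from plate 317. Ifitm3 stood at 871 CPM in endothelial-like, 976 in mesangial-like and 1013 in macrophage or dendritic-like Control cells but at 18.8 CPM in podocyte-like cells, where its relative Ifitm2 stood at 597 CPM.

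**Figure D3:**
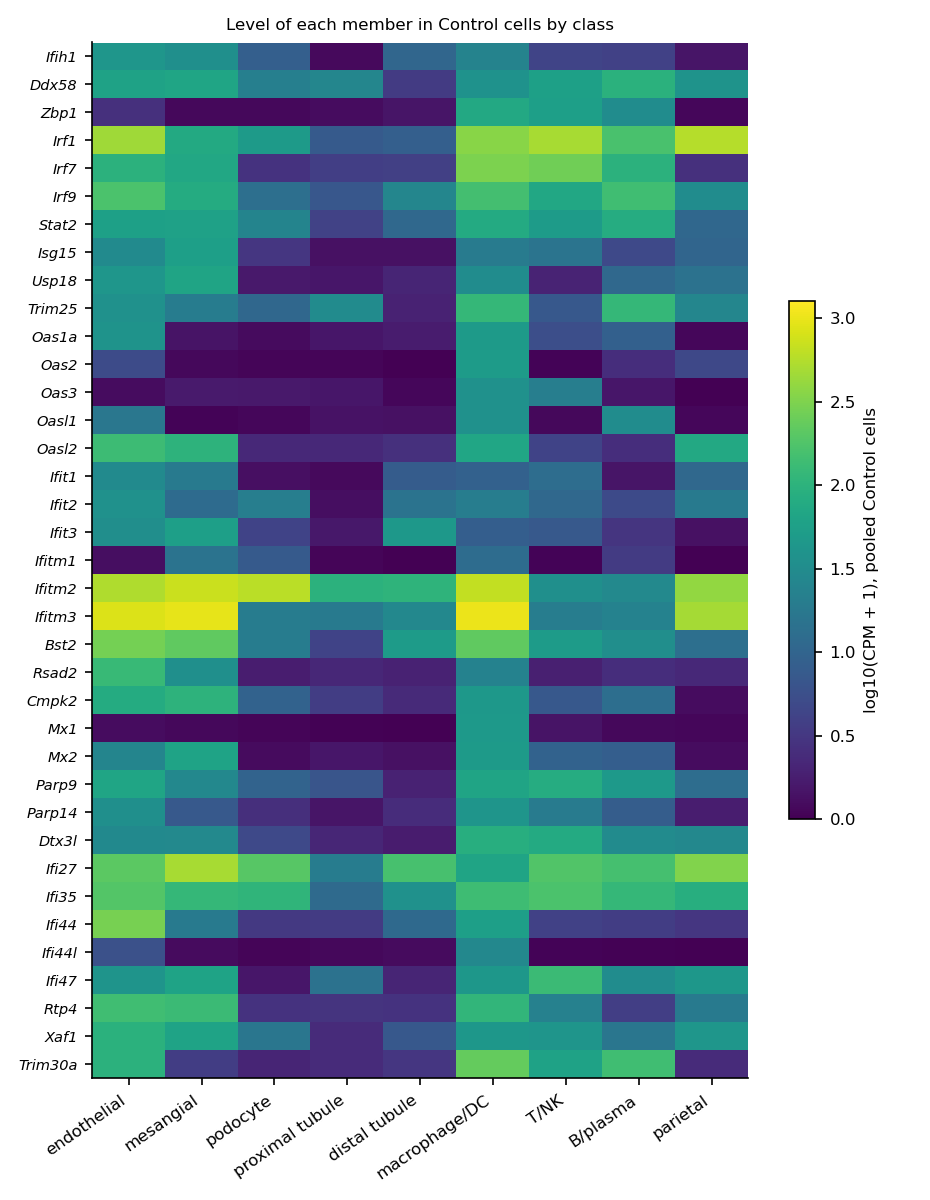
Level of each of the 37 members (rows, by role) in pooled Control cells of 9 classes (columns), as log10(CPM + 1). Ifitm2 and Ifitm3 are the brightest rows in endothelial-like, mesangial-like and macrophage or dendritic-like cells, podocyte-like cells keep Ifitm2 but not Ifitm3, and Mx1 and Oas2 stand out in macrophage or dendritic-like cells.

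In macrophage or dendritic-like cells (193 IgAN and 103 Control) all 37 members were measured, 31 were positive and the median was 0.54, against 0.06 for all measured genes. Of the 37, 3 passed the filter on low values through the IgAN cells only. The 34 that passed in both groups had a median of 0.51. Plates were less separate than in endothelial-like cells: IgAN plates ran from 0.26 to 0.72 and Control plates stood at -0.79, 0.48, -0.01 and -0.46 on 314, 317, 321 and 326, with plate 317 among the IgAN plates. Without plate 317 the median was 0.73 and 5 members (Oas2, Ifit1, Ifit2, Ifi44 and Ifi44l) were higher, where 1.33% of all measured genes were. With all plates 1 member was higher (0.723% of all measured genes were) and 0 members were lower (0.462% of all measured genes were).

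That member was Ifi44, a cytosolic protein of incompletely known function that interferon induces. It stood at 247 to 376 CPM (median 344) on the IgAN plates and at 19.8, 154, 0.305 and 3.82 CPM on Control plates 314, 317, 321 and 326. All IgAN plates lay above all Control plates, and plate 317 was the highest Control plate by a wide margin. Pooled, Ifi44 had 332 CPM (327 to 337) in IgAN and 55.9 CPM (53.2 to 58.7) in Control cells, a log2 difference of 2.55, or 4.86 without plate 317 and 3.14 without the cells on the other side of the Gm13340 share. By cell, at least 50 CPM was reached by 32.3% to 55.8% of IgAN cells per plate and by 1 of 32, 9 of 30, 0 of 15 and 0 of 26 Control cells on plates 314, 317, 321 and 326. In endothelial-like cells, where Ifi44 did not differ, the same share was 25.3% to 51.2% on IgAN and 36.0% to 44.6% on Control plates; whether the difference between the classes goes beyond the plates was not tested.

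Endothelial RNA was also found in these cells. The 12 endothelial markers summed to 14.0% of their endothelial-like level in IgAN and 6.00% in Control macrophage or dendritic-like cells, with none at 0. By plate they stood at 1.83%, 17.5%, 8.73%, 22.7%, 3.88% and 25.0% on IgAN plates 313, 315, 316, 318, 322 and 325. On Control plates 314, 317, 321 and 326 they stood at 13.5%, 2.75%, 1.43% and 3.02%. Without the cells that carried markers of another class, the log2 difference of Ifi44 was 2.58 but its plates overlapped. The part of endothelial RNA in the Ifi44 difference was not tested.

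**Figure D4:**
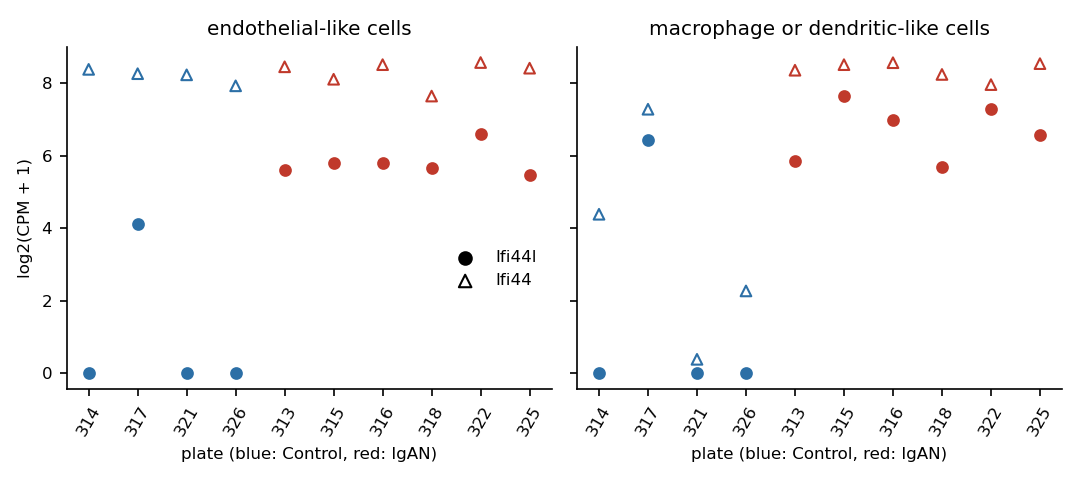
Level of the neighbouring genes Ifi44 (triangles) and Ifi44l (circles) as log2(CPM + 1) on each plate, in endothelial-like cells on the left and macrophage or dendritic-like cells on the right, Control in blue and IgAN in red. Ifi44 is level across all 10 plates in endothelial-like cells and low on Control plates 314, 321 and 326 in macrophage or dendritic-like cells; Ifi44l is at 0 on these plates in both classes.

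Ifi44l stood at 50.9 to 197 CPM (median 109) on IgAN plates in macrophage or dendritic-like cells and at 0, 85.2, 0 and 0 CPM on Control plates. Plate 317 lay inside the IgAN range, so the pooled log2 difference of 2.16 did not meet the rule, and without that plate no read was found in 73 Control cells, which allows up to 4.11% of cells with a read, against 46.6% of IgAN cells. Rsad2 (71.7 against 22.6 CPM, 1.62) and Oas3 (104 against 35.5 CPM, 1.52) followed by size, with overlapping plates. All 5 oligoadenylate synthetase members were positive (median 0.94), including Oas2 (95.7 against 49.6 CPM, 0.94). Mx1 went the other way, with 23.5 CPM in IgAN and 46.0 CPM in Control cells (-0.94), as did Stat2 with 37.3 and 77.8 CPM (-1.04), both with overlapping plates.

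In mesangial-like cells (117 IgAN and 51 Control) 31 members were measured and 21 were positive, with a median of 0.23 against 0.02 for all measured genes, and the IgAN plates (-0.24 to 0.88) overlapped the Control plates (-0.95 to 0.40). The member median was 0.60 without Control plate 317 and 0.072 without IgAN plate 315. Oas1a and Ifi44 were higher by the size rule, which 1.28% of all measured genes met, and Cmpk2 was lower, which 1.47% of all measured genes were. Oas1a was among the 3 members that passed the filter on low values through the IgAN cells only. The 27 members that passed in both groups had a median of 0.18. Oas1a stood at 2.26 to 55.3 CPM (median 13.7) on IgAN and at 0, 0.699 and 0.793 CPM on Control plates 314, 317 and 326. Ifi44 stood at 48.3 to 271 CPM (median 105) on IgAN and at 1.43, 47.8 and 5.02 CPM on those Control plates. Plate 317 lay just under the lowest IgAN plate, and the log2 difference was 2.63 with it and 4.91 without it. Without the cells on the other side of the Gm13340 share it was 2.53 with overlapping plates. With a marker gate in place of clusters, or at 50000 reads per cell, neither Ifi44 nor Oas1a met the rule. Cmpk2 ran the other way, at 2.29 to 43.6 CPM (median 8.26) on IgAN and at 46.2, 138 and 67.1 CPM on Control plates, a log2 difference of -2.73, while its neighbour Rsad2 had 30.7 against 33.8 CPM (-0.13).

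Most of these cells carried RNA of other classes: 107 of 117 IgAN and 42 of 51 Control cells had at least 3 markers of another class at 50 CPM or more. The endothelial markers summed to 22.2% of their endothelial-like level in IgAN and 16.3% in Control mesangial-like cells, and none was at 0. Only 10 IgAN and 9 Control cells lacked such markers, too few for plate values, so the part of endothelial RNA in these levels was not tested.

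In proximal tubule-like cells (135 IgAN and 85 Control) 31 members were measured and 30 were positive, with a median of 3.91 against 0.29 for all measured genes. Of these, 24 passed the filter on low values through the IgAN cells only, which favours a positive sign. Neither the count nor the median of the 31 therefore supports a difference of the set. The 7 members that passed in both groups had a median of 2.04, and 6 of them were positive. By the size rule 7 members (Ifih1, Irf1, Irf7, Isg15, Ifit1, Ifi27 and Ifi44l) were higher, where 3.48% of all measured genes were, and 0 were lower, where 1.73% of all measured genes were. Without the cells on the other side of the Gm13340 share Bst2 and Ifi44 joined the 7 (3.62% of all measured genes were higher there). The plates differed greatly: the member median was 3.77 on IgAN plate 315 and 5.20 on plate 325, but 0.44, 1.29 and 1.14 on plates 316, 318 and 322, and -0.18 to 0.01 on the Control plates. Endothelial markers followed the same order among the IgAN plates but not among the Control plates. The markers stood at 27.5% and 46.5% of their endothelial-like level on plates 315 and 325, at 1.27%, 4.98% and 2.87% on plates 316, 318 and 322, and at 0.907% to 1.71% on Control plates, and none was at 0. The members' median level stood at 38.1% and 74.3% of their endothelial-like level on plates 315 and 325, at 1.86% to 4.15% on the other IgAN plates and at 1.10% to 2.44% on the Control plates.

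**Figure D5:**
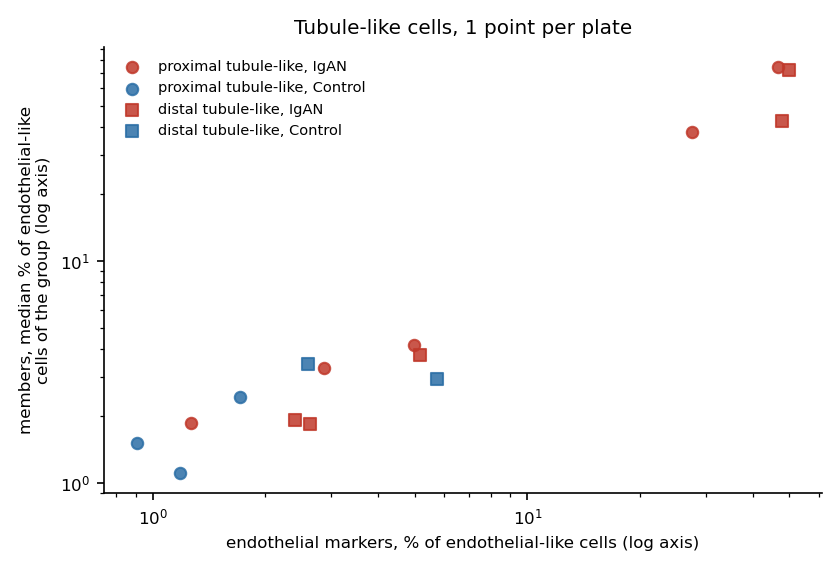
Median level of the members as a percent of their level in endothelial-like cells of the same group (vertical, log axis) against the summed level of 12 endothelial markers on the same scale (horizontal, log axis), with 1 point per plate for proximal (circles) and distal (squares) tubule-like cells, IgAN in red and Control in blue. The 4 points from plates 315 and 325 lie apart at the upper right, with markers at 27.5% to 50.0%, and the other IgAN points lie among or near the Control points.

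Irf1 shows the pattern: on IgAN plates 315, 316, 318, 322 and 325 it stood at 337, 22.3, 87.2, 135 and 522 CPM, and on Control plates 314, 317 and 321 at 5.91, 6.35 and 6.87 CPM. All IgAN plates lay above all Control plates, with plate 316 nearest to them. Ifi27 stood at 169, 114, 84.8, 122 and 217 CPM on the IgAN plates and at 19.5, 9.27 and 25.3 CPM on the Control plates, which did not overlap. Ifih1 stood at 31.4, 28.7, 2.75, 1.02 and 43.5 CPM against 0, 0.343 and 0.221 CPM. Irf7 stood at 59.1, 9.65, 8.58, 4.07 and 45.0 CPM against 1.54, 3.09 and 2.99 CPM, so that plates 316, 318 and 322 were far nearer to the Control plates than 315 and 325. Isg15 stood at 19.1, 1.10, 1.03, 2.37 and 53.1 CPM against 0.257, 0.343 and 0.443 CPM. Ifi44l stood at 9.23, 0.827, 1.72, 2.03 and 24.2 CPM against 0, 0.515 and 0 CPM. Ifit1 rested on plate 325: it stood at 2.22, 1.10, 0.686, 1.36 and 99.6 CPM against 0.257, 0.172 and 0.221 CPM, and its log2 difference fell from 4.50 to 1.17 without that plate.

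Without the cells that carried markers of another class, 43 IgAN and 66 Control proximal tubule-like cells were left, in which endothelial markers summed to 196 and 160 CPM. In these 14 members were measured, 11 were positive and the median was 1.36. Bst2 (29.2 against 2.87 CPM, 2.97) and Irf1 (14.9 against 5.67 CPM, 1.26) met the size rule there, as did 2.54% of all measured genes. The IgAN plates came to 0.14 to 0.48 and the Control plates to -0.97 to 0.34, so that the member medians of the plates overlapped.

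Distal tubule or collecting duct-like cells (74 IgAN and 46 Control) had 32 measured members, all positive, with a median of 3.38. Of the 32, 23 passed the filter through the IgAN cells only, which favours a positive sign. Neither the count nor the median of the 32 therefore supports a difference of the set. The 9 members that passed in both groups had a median of 1.86, and all 9 were positive. There were only 2 Control plates with at least 5 cells, so the size rule was not applied. The member median was 4.26 on IgAN plate 315 and 2.16 on plate 325, and -0.12, -0.09 and 0.69 on plates 313, 316 and 318, against 0.17 and -0.08 on the Control plates. Endothelial markers stood at 50.0% and 47.7% of their endothelial-like level on plates 315 and 325, at 2.40% to 5.16% on the other IgAN plates and at 2.59% and 5.73% on the Control plates. In the 16 IgAN and 20 Control cells without markers of another class the median was 1.61. As in the proximal tubule, the part of endothelial RNA in the difference was not tested.

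Podocyte-like cells (39 IgAN and 146 Control) expressed few members: 16 were measured, and 9 were positive. The pooled median was 0.31, but the IgAN plates with at least 5 cells ran from -1.15 to -0.12 and the Control plates from -0.37 to 0.22, so the sign of the pooled median is not that of the plates. Of the 16, 5 passed the filter through the IgAN cells only, and the 10 that passed in both groups had a median of -0.17. No member met the size rule in either direction; 1.55% of all measured genes were higher and 5.11% were lower. Without IgAN plate 322 the median was -0.070. Ifitm2 had 566 against 597 CPM (-0.08) and Irf1 15.2 against 48.5 CPM (-1.61), the latter at 18.8, 13.4 and 25.6 CPM on IgAN plates 313, 316 and 318 and at 77.7, 55.2, 3.41 and 37.4 CPM on Control plates.

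In T or NK-like cells (93 IgAN and 128 Control), where Ifng met the size rule as higher in IgAN, 25 members were measured and 15 were positive. The median was 0.15, or 0.12 to 0.38 with 1 plate left out. The IgAN plates ran from -1.27 to 0.25 and the Control plates from -0.43 to 0.23, so that they overlapped. No member met the size rule in either direction, which 0.462% of all measured genes met as higher and 1.27% as lower. Irf1, a strong target of interferon gamma, stood at 498 to 672 CPM (median 560) on IgAN and at 605, 400, 472 and 479 CPM on Control plates (0.15). Usp18 had the widest difference in this class, 22.8 against 1.02 CPM (3.56), but IgAN plate 316 had 0 reads of it. Dtx3l was the lowest at 15.0 against 78.0 CPM (-2.30), also with overlapping plates. Usp18 was among the 4 members that passed the filter on low values through the IgAN cells only. The 20 members that passed in both groups had a median of 0.12.

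In B or plasma cell-like cells (26 IgAN and 117 Control) 22 members were measured and 14 were positive, with a median of 0.27 against -0.18 for all measured genes. Only 3 IgAN plates held at least 5 such cells; these ran from -0.79 to 0.0063 and the Control plates from -0.45 to 0.32, so the sign of the pooled median is not that of the plates. With 1 plate left out the median was 0.11 to 0.50. Rtp4, a chaperone of receptor transport, was higher by the size rule, as 1.27% of all measured genes were: it stood at 41.7, 22.6 and 8.46 CPM on IgAN plates 313, 316 and 318 and at 1.52, 6.80, 2.30 and 1.56 CPM on Control plates (2.34). Stat2 and Parp9 were lower, as were 9.16% of all measured genes. Stat2 had 0 reads on those 3 IgAN plates against 64.9, 29.5, 52.7 and 146 CPM on Control plates, and Parp9 0, 1.08 and 0.846 CPM against 10.1, 49.9, 47.2 and 62.7 CPM. Rtp4 was among the 3 members that passed the filter on low values through the IgAN cells only. Stat2 and Parp9 were among the 5 that passed it through the Control cells only. The 14 members that passed in both groups had a median of 0.41.

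Parietal epithelial-like cells (49 IgAN and 24 Control) are given by level only. Ifi27 had 441 CPM in IgAN and 323 CPM in Control cells, Irf1 412 and 573 CPM, Ifitm3 476 and 481 CPM and Ifitm2 372 and 395 CPM.

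Over the 8 classes other than parietal epithelial-like cells, some members had the same sign wherever they were measured. Ifitm3 and Bst2 were positive in all 8 classes in which they were measured, Ifih1, Ddx58, Ifit2 and Trim30a in all 7, Isg15, Zbp1, Ifit1 and Ifi44 in all 6, Oas1a in all 5 and Ifi44l in all 4. The same plates enter each class, so these counts are not independent of each other. They also include members that passed the filter on low values through the IgAN cells only, which favours a positive sign. These were 24 of 31 in proximal and 23 of 32 in distal tubule-like cells, with fewer in the other classes. The counts therefore do not show by themselves that a member differs across cell types. Stat2 was positive in 2 of the 7 classes in which it was measured and Mx1 in 0 of 1.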

How the data were processed

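Values were raw read counts per gene and cell, as deposited by the authors in 1 table. Per the submitters' processing notes, TopHat2 2.1.1, SAMtools 0.1.18 and featureCounts from Subread 1.4.6-p5 were used with GRCm38 (mm10); which annotation and strand setting the counting used, and whether duplicates or cells were removed, was not given in the sources used here. All deposited cells were kept and no doublet caller was run. Each table column was matched to its sample by the plate and well name in the labels, and its group came from the labelled treatment.

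Python 3.11.15 with pandas 2.3.3, numpy 2.4.6, scipy 1.17.1 and scanpy 1.11.5 was used. Cells were clustered (Leiden, resolution 1, 23 clusters; counts scaled to 100000 per cell, 2000 variable genes, 30 components, 15 neighbours) without the members, the pathway genes and their relatives. A cluster was called "X-like" by the marker list, of 13, with the highest mean log2 fold, where at least 3 markers were read in 25% of its cells. Cells with at least 3 markers of another class at 50 CPM or more counted as mixed, and were kept. Reads were pooled per class, group and plate as described with the results. A count test was not used because the labels name no animals. The pooling and the size rule were tested on simulated counts.

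Values per plate are given for every member that met the size rule (in the other classes at most 8), for the 2 most abundant members of each role in endothelial-like cells, and for members whose leading Control class had 4 times the next. The members, lists and rules were chosen with earlier results of these data known. Alternatives included other scaling, filters, added constants, cluster resolutions, a marker gate, thinning and leaving out each plate. 1 gene of the kinase and STAT list is not reported here. Smooth muscle or renin cell-like, neutrophil-like and unnamed clusters were left out of the comparisons. Promoter bases came from a RefSeq table for GRCm38.p6 and gene positions and exon lengths from GENCODE vM21.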

Additional observations from a re-analysis of the deposited data

Results flagged for a closer look

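Among 51 sets of 4 to 6 plates, 6 held a plate far from the others of its group; by the limit used, chance alone marks about 1 set in 20. In endothelial-like cells of IgAN plate 322, Oas1a stood at 124.8 CPM with the next plate at 84.2 CPM, and Ifi44l at 94.7 CPM with the next at 54.4 CPM. Cmpk2 stood at 144 CPM on IgAN plate 318, above 92.3 CPM on the next. Ifit2 stood at 34.1 CPM on Control plate 326, below the other Control plates (37.3 CPM for the nearest). Ifi44l stood at 16.3 CPM on Control plate 317, where the other Control plates had 0. In macrophage or dendritic-like cells the member median of IgAN plate 315 was 0.72, above 0.41 on the next plate. The cause of these values was not tested.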

How the results depend on the processing

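Besides leaving out plates, 15 alternatives were run, 2 of them chosen after seeing the data (without the platelet-led cluster, and without cells on the other side of the Gm13340 share). Single members were recomputed only where they had met the size rule, in endothelial, mesangial, proximal tubule and macrophage or dendritic-like cells. They were thus picked for wide differences. Of these 386 values 339 kept their direction and their side of the size rule, 47 kept only their direction and none reversed. Members outside this choice could turn, as Irf1, Stat2, Oasl2, Cmpk2 and Ifi35 did in endothelial-like cells without the platelet-led cluster. In the counts that follow, a percentage is the share of all measured genes that were higher in that setting. The endothelial-like count of 5 members higher fell to 2 (Oas1a and Ifi44l) with a marker gate (0.781%). It fell to 2 (the same genes) at 50000 reads per cell (0.783%). Leaving out each plate gave 3 to 6, the lowest without plate 322 (0.892%). It was 6 without plate 318 (0.939%), 321 (0.976%) or 325 (0.908%). The endothelial-like median was 0.36 without the platelet-led cluster and 0.47 to 0.64 over plates left out. The podocyte-like median reversed to -0.27 at a minimum of 50 CPM and to -0.18 without mixed cells, and ran from -0.070 (without plate 322) to 0.81 (without plate 326). Without mixed cells the proximal tubule-like median was 1.36, the distal one 1.61 and the T or NK-like one -0.067, a reversal. The distal median was 2.15 to 3.84 over plates left out, the lowest without plate 315. A marker gate gave 0.95 in T or NK-like and 1.02 in B or plasma cell-like cells, and median-of-ratios scaling 0.79 in the latter. The cause of these changes was not tested. Ifi44l in endothelial-like cells came to 5.98 without plate 317. In proximal tubule-like cells the count of members higher ran from 5 to 21 over plates left out. It was lowest without plate 325 (3.79%) and highest without plate 316, where 7.27% of all measured genes were higher. That count was 2 at 50 CPM (3.06%), 2 without mixed cells (2.54%) and 3 with a marker gate (3.52%). The mesangial-like count of 2 was 1 with median-of-ratios scaling (1.28%), at 50 CPM (1.16%) and without the cells on the other side (1.37%). It was 0 with a marker gate (1.01%) and 2 to 4 over plates left out (4 without plate 313, 1.96%). It stayed at 2 at 50000 reads per cell (1.36%), but with Parp14 and Trim30a in place of Oas1a and Ifi44. With the mean of per-cell CPM (1.43%) the 2 were Oas1a and Parp14. The macrophage or dendritic-like count of 1 was 2 with the mean of per-cell CPM (0.780%) and 0 without mixed cells (0.365%). It was 1 to 5 over plates left out (5 without plate 317, 1.33%). The T or NK-like count of 0 was 1 with the mean of per-cell CPM (0.489%) and without mixed cells (1.91%). It was 2 with no low filter (0.142% of all 46517 genes) and with a marker gate (0.513%), and 0 to 0 over plates left out. The B or plasma cell-like count of 1 was 0 at 50 CPM (1.48%) and 2 with a marker gate (0.566%) or thinning (1.49%). It was 1 to 2 over plates left out (2 without plate 314, 1.62%, or 326, 1.91%). Mesangial-like cells without mixed cells gave no plate value. At 50000 reads per cell 31 members were measured in endothelial-like cells, against 33 at full depth. No paired analysis was possible because the labels number cells, not replicates.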
